A study of Homo sapiens with 8 samples.

Results

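The 10 genes VIM, FN1, SPARC, TNC, ZEB1, ZEB2, SNAI1, SNAI2, TGFB1 and PMEPA1 belong to TGF-beta signalling and to the change of epithelial cells towards a mesenchymal state, and they were chosen by name among the 20037 protein-coding genes of RefSeq GRCh38 on the assembled chromosomes. Every peak of 6 deposited ChIP-seq lists was taken that overlapped one of these genes or the 10 kb on either side of it. The cells were Huh7, a human hepatocellular carcinoma line, and in all groups ARID1A was knocked out and a Flag-tagged ARID1A was then expressed stably from a lentivirus. The 3 groups carried wild-type ARID1A (WT), the missense mutant V2084D, or V2084D together with a knockdown of STUB1, a ubiquitin ligase, and each had 2 libraries immunoprecipitated with a Flag antibody. The signal is therefore that of the introduced protein, overexpressed according to the labels, and not of ARID1A at its own level. The peak names carry the tag shEV in the WT and V2084D lists and another sh tag in the knockdown lists, and the labels do not explain these tags. Whether the cells were 1 clone, and whether libraries of the same group were grown as separate cultures, is not given in the sources used here, so the spread between libraries may be technical. The 2 WT input libraries were not used here.

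TGF-beta is a secreted cytokine whose receptors phosphorylate SMAD proteins, which then enter the nucleus and act on target genes. In epithelial cells and in hepatocytes the pathway can switch on the repressors of the SNAI and ZEB families, which lower genes of cell-cell junctions, while genes of the cytoskeleton and the matrix such as VIM and FN1 rise. ARID1A is the subunit that defines the canonical BAF form of the SWI/SNF complexes, which move and eject nucleosomes at promoters and enhancers. A peak here marks where the Flag-tagged protein was enriched on chromatin, and it says nothing of the expression of the gene.

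The WT lists were the longest, with 27587 and 26515 peaks, against 6000 and 12384 in the V2084D lists and 8904 and 6663 in the knockdown lists. Read depth is unknown, and list length can vary with it and with the efficiency of the immunoprecipitation. Peak lists hold no expression, so the labelled cell type could not be checked by its marker genes. The hepatocyte genes ALB and AFP had no peak in any list, and TTR had 1 in WT replicate 2 alone. APOA1 had 1 in each WT list, 1 and 2 in the V2084D lists, and 1 in knockdown replicate 1 but none in replicate 2. The fold enrichments below are those of the authors' caller, and folds and ranks (by −log10 q, 1 being the strongest) were read only within a list.

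All 10 genes had a peak in each WT list, and 71.9% and 71.2% of all protein-coding genes did so. With V2084D, 3 of the 10 genes had a peak in replicate 1 (28.8% of all genes) and 4 in replicate 2 (46.0%). With STUB1 knockdown, 5 had one in replicate 1 (40.0%) and 4 in replicate 2 (31.4%). VIM, TGFB1 and SNAI1 had a peak in all 6 lists, as did 16.4% of all genes. FN1, SPARC, TNC and ZEB1 had peaks in the WT lists and in none of the 4 mutant lists, as had 17.7% of all genes at which peaks of both WT lists overlap. The other 3 genes were mixed. ZEB2 had a peak in V2084D replicate 2 alone among the mutant lists, SNAI2 in replicate 1 of the knockdown alone, and PMEPA1 in both knockdown lists. Thus 3 of the 10 genes had a peak in both V2084D lists (37.1% of all genes at which peaks of both WT lists overlap did) and 4 in both knockdown lists (39.0%).

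**Figure D1:**
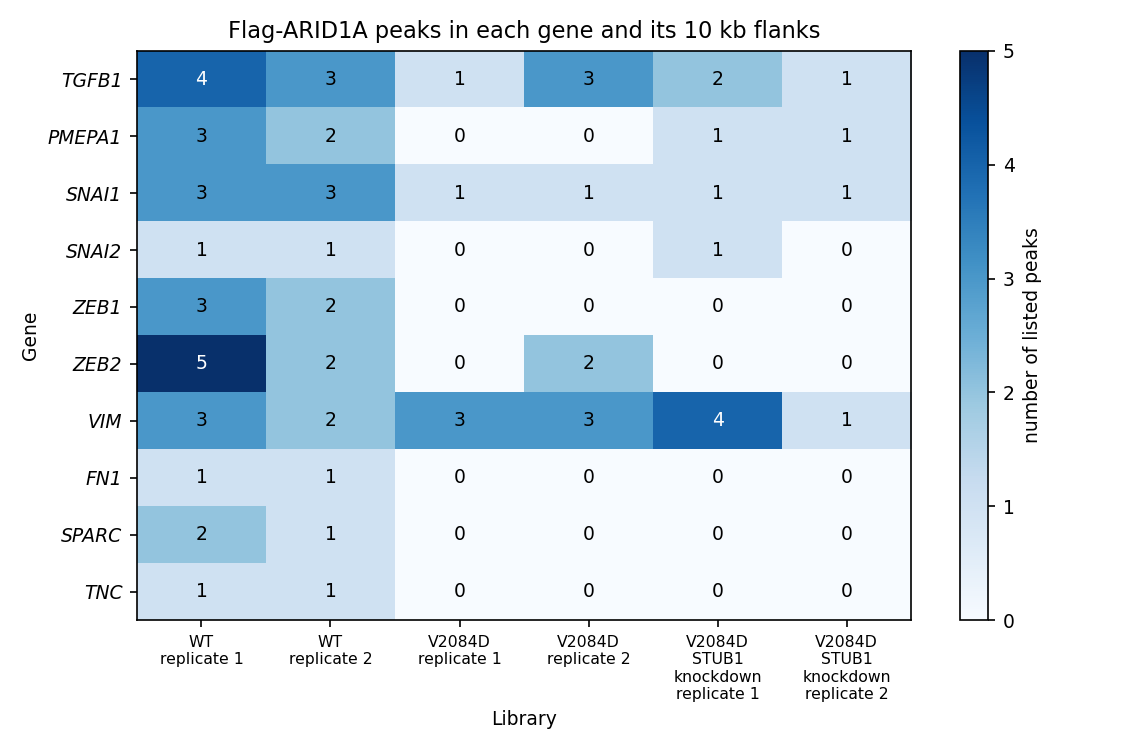
Number of listed peaks in each gene and its 10 kb flanks (colour and printed number) for each of the 10 genes (rows) in each of the 6 libraries (columns). FN1, SPARC, TNC and ZEB1 have at least 1 peak in each WT library and 0 in each of the 4 mutant libraries, while VIM has at least 1 peak in every library.

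A RefSeq promoter table (GRCh38.p14, from 250 bases before to 50 bases after each annotated start) held 8 of the 10 genes with 17 starts, and SNAI1 and SNAI2 were not in it. Of these 8 genes, 5 had a start under a peak of both WT lists. The promoter sequences of such starts are shown. Only the start had to lie under a peak of both WT lists, so the peaks need not cover the whole stretch. Among all 15843 protein-coding genes in that table, 40.6% had a start under a peak of both WT lists. ZEB1 has 7 annotated starts and PMEPA1 has 4, which gives these genes more chances. Sequences run 5′ to 3′ along the gene's own strand, and capitals mark the GC box GGGCGG on either strand, the core of the site of SP1-type factors.
VIM (chr10:17227991-17228290, plus strand, start 17228241): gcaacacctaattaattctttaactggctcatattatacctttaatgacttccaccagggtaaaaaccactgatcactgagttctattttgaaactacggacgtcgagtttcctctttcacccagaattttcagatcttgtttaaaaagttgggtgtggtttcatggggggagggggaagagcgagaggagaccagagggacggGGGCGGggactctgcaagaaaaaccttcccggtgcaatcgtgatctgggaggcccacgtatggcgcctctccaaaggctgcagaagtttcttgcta
TGFB1 (chr19:41353873-41354172, minus strand, start 41353922): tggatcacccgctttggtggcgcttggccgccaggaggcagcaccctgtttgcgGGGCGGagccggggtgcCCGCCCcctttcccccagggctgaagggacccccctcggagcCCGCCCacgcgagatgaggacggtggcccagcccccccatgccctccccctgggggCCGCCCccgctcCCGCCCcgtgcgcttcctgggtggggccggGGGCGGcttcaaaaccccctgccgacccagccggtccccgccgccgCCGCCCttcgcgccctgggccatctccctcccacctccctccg
FN1 (chr2:215436019-215436318, minus strand, start 215436068): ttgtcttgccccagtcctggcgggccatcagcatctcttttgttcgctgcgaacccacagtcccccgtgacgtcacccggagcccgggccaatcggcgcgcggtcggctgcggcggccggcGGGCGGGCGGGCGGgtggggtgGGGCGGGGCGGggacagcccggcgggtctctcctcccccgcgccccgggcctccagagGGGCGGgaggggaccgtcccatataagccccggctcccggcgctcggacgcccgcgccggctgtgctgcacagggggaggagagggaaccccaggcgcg
ZEB1, upstream of the 2 starts (chr10:31318568-31318867, plus strand, start 31318818): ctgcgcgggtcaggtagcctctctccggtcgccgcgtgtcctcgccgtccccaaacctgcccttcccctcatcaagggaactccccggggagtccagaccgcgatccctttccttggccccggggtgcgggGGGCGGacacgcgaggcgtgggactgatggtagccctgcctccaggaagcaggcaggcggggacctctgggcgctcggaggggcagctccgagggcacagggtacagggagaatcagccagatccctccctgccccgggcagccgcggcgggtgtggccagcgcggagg
ZEB1, downstream of the 2 starts (chr10:31319518-31319817, plus strand, start 31319768): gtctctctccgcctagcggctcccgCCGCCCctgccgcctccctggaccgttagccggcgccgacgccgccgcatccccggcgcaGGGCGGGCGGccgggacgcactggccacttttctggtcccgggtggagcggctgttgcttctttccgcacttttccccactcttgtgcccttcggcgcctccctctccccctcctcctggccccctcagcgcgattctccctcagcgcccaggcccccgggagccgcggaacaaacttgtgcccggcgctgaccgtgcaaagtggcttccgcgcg
PMEPA1 (chr20:57709966-57710265, minus strand, start 57710015): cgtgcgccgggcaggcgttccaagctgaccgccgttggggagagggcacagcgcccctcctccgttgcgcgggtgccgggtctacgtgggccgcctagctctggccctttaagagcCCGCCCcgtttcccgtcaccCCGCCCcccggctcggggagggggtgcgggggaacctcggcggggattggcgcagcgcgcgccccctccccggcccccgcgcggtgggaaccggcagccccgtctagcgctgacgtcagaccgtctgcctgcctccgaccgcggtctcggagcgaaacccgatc
In the mutant lists the start of TGFB1 lay under a peak in all 4, the start of VIM only in replicate 1 of the knockdown, and the other 4 starts in none.

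All 6 promoters held the GC box, with overlapping copies counted separately. There were 7 copies in TGFB1, 6 in FN1, 3 and 1 in the promoters of ZEB1, 2 in PMEPA1 and 1 in VIM. It was held by 45.0% of all 35116 listed promoters, of the 9083 whose start lay under a peak of both WT lists 77.2%, and of the 21504 whose start lay under no WT peak 25.5%. The G and C content ran from 48.0% in VIM to 77.3% in TGFB1, against medians of 67.7% for starts under a peak of both WT lists and 50.7% for starts under none. None of the 6 held the AP-1 motif TGANTCA (7.71% of all promoters), the TEAD motif GGAATG (14.0%) or the TATA box TATAAA (11.5%). None held an E-box CANNTG either, and so none held CAGGTG, the form read by SNAI and ZEB proteins, which is contained in it (68.7% and 20.6% of all promoters, and 56.6% and 17.2% of those under a peak of both WT lists). The short SMAD motif GTCT was found in 5 of the 6, up to 5 times in PMEPA1, and was missing from TGFB1 (84.0% of all promoters). CAGAC, which overlaps the reverse of GTCT, was found 2 times in PMEPA1 and once in the upstream promoter of ZEB1 (45.3%). CCAAT was found once each in FN1 and PMEPA1 (34.6%). All motifs were searched on both strands, and a match is a description of the letters, not a site.

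TGFB1, on chromosome 19 from 41330323 to 41353922, encodes the ligand TGF-beta 1. It had 4 and 3 peaks in the WT lists, 1 and 3 with V2084D, and 2 and 1 with STUB1 knockdown. The strongest WT region, joined from overlapping peaks of both WT lists, ran from -462 to 355 bp around the start (negative values lie upstream). The peak that covered the start had folds of 8.61 (rank 1743) and 5.96 (rank 4039) in WT, of 4.14 and 3.55 in V2084D, and of 6.52 and 6.19 with knockdown. Its summits lay close together, at -29 and 43 bp in WT, at -126 and 66 bp in V2084D, and at -39 and 9 bp with knockdown. Of the 2 WT regions inside the gene, the one with summits at 1275 and 1162 bp had a peak in V2084D replicate 2, and the one with summits at 2440 and 2216 bp had one in knockdown replicate 1. B9D2, a gene of the ciliary transition zone, ends 494 bp from TGFB1 on the other side of its start, so the start region lies between both genes. The 1 distant peak of V2084D replicate 2, with a fold of 3.97, lay inside the neighbouring gene CCDC97. The 10 kb rule fell close to a peak here, since WT replicate 1 (fold 5.42) and V2084D replicate 1 (fold 2.87) had peaks just past it, starting at 41363925 and 41364235, at the far end of B9D2, which were not counted.

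PMEPA1, on chromosome 20 from 57648396 to 57711472, is a target of TGF-beta that dampens SMAD signalling. It had 3 and 2 peaks in WT, none in V2084D, and 1 in each knockdown list. Its WT region, with folds of 4.97 and 6.92, ran from 672 to 1745 bp downstream of the outermost start and covered a start within it. The peaks of the knockdown lists lay at different places. In replicate 2 the summit was inside the WT region at 1249 bp (fold 3.41, rank 6226 of 6663 peaks). In replicate 1 it lay at -7166 bp (fold 4.43, rank 7193 of 8904), where WT replicate 1 had a peak with its summit at -7287 bp and WT replicate 2 had none. The pattern of no V2084D peak and a peak in both knockdown lists was found at 2.13% of all genes with a WT region, and at 1 of the 10 genes. The RNA gene NKILA overlaps the start of PMEPA1, and ChIP peaks carry no strand, so they cannot be assigned to either.

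SNAI1 and SNAI2 encode the zinc finger repressors Snail and Slug, which bind E-boxes of genes such as that of E-cadherin. SNAI1, on chromosome 20 from 49982980 to 49988886, had 3 peaks in each WT list and 1 in each of the 4 mutant lists. The mutant peaks all overlapped the WT region at the low-coordinate end of the gene, which had WT folds of 6.82 and 5.64. Their folds there were 4.51 and 5.05 in V2084D and 3.33 and 2.79 with knockdown, and the knockdown peaks were among the weakest of their lists (ranks 7588 of 8904 and 6565 of 6663). The other WT region, 3730 and 3782 bp outside that end by its summits, had no mutant peak although its fold in WT replicate 1 was higher, at 8.05 (4.37 in replicate 2). SNAI2, on chromosome 8 from 48917598 to 48921429, had 1 peak in each WT list, with folds of 3.67 and 5.66 and summits 45 and 380 bp outside the high-coordinate end. It had no V2084D peak, and knockdown replicate 1 had a peak there with a fold of 4.62 and its summit at 318 bp, while replicate 2 had none. The uncharacterised RNA gene LOC107986942 begins 127 bp from that end of SNAI2 and overlaps all 3 peaks.

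ZEB1 and ZEB2 encode zinc finger homeobox repressors of epithelial genes, and both are long genes, of 211 and 136 kb, with peaks near the start. ZEB1, on chromosome 10 from 31318417 to 31529804, had 3 peaks in WT replicate 1 with folds of 4.55, 5.05 and 5.97, and 2 in replicate 2 with folds of 4.47 and 3.88. They began 91 bp downstream of the outermost start with the farthest summit at 2710 bp, and no mutant list had a peak in the gene or its flanks. Most of this stretch also lies in the antisense RNA gene ZEB1-AS1. ZEB2, on chromosome 2 from 144384081 to 144520119, had 5 and 2 peaks in the WT lists. Its WT region, from 2331 to 4277 bp downstream of the start, had folds of 6.33 and 6.67. In V2084D replicate 2 there was a peak in that region with a fold of 3.61 (rank 9954 of 12384) and another at 78938 bp inside the gene, and the other 3 mutant lists had none. A peak over the start of ZEB2 was listed in WT replicate 1 alone, with a fold of 2.82.

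VIM, on chromosome 10 from 17228241 to 17237593, encodes vimentin, the intermediate filament protein of mesenchymal cells. It had the strongest WT peak of the 10 genes, with folds of 9.65 (rank 359) and 8.82 (rank 430), and a peak in every mutant list. The WT lists gave it as a broad block of 1830 bp in replicate 1 and 2744 bp in replicate 2 that began just before the start. In the mutant lists several shorter peaks lay in the same stretch. V2084D had 3 peaks in each list, of 335, 576 and 475 bp in replicate 1 and of 461, 351 and 304 bp in replicate 2, with folds from 3.95 to 4.85. With knockdown there were 4 peaks in replicate 1, with folds from 3.89 to 5.21, and 1 in replicate 2, with a fold of 5.34. The summits recurred between libraries. A summit in the first kilobase downstream of the start was listed in 5 libraries, at 757 bp in WT replicate 1, 674 and 615 bp in V2084D, and 729 and 675 bp with knockdown. One beyond 2 kb was listed in 5 libraries too, at 2297 and 2115 bp in WT, 2108 and 2140 bp in V2084D and 2147 bp in knockdown replicate 1. In between, V2084D had summits at 1481 and 1222 bp and knockdown replicate 1 at 1640 bp. Peaks covered 2860 and 3304 bp of the window in WT, 1386 and 1116 bp in V2084D, and 1725 and 394 bp with knockdown. The WT libraries lay above all 4 mutant libraries in this measure, whereas the number of peaks did not separate the groups. Covered length was not taken over all genes, so no share of all genes stands beside it. Over the whole lists, too, WT peaks were wider. Their median width was 517 and 500 bp in WT, 391 and 415 bp in V2084D, and 447 and 410 bp with knockdown. The weak WT region just upstream of the start, with summits at -485 and -351 bp, had no mutant peak. VIM-AS1 overlaps the start of VIM.

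**Figure D2:**
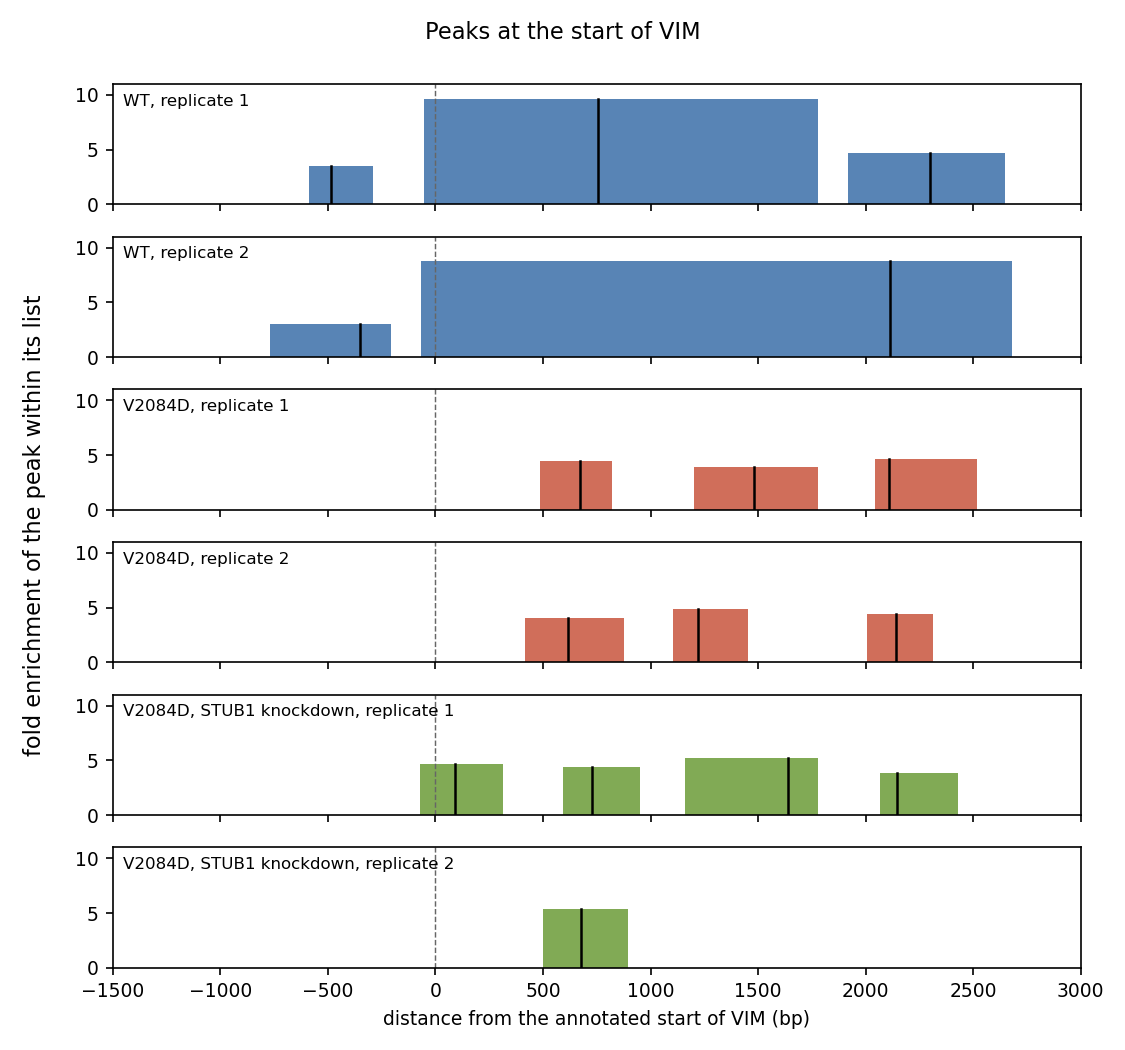
Peaks at the start of VIM in the 6 libraries. The horizontal axis is the distance from the annotated start in bp (dashed line at 0), bars span the peaks, bar height is the fold enrichment within that list, and black lines are the summits. The 2744 bp block of WT replicate 2 spans 3 separate peaks in each V2084D list, with folds from 3.95 to 4.85, and the 1830 bp block of WT replicate 1 spans 2 of them.

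The matrix genes FN1, SPARC and TNC had WT peaks weaker than the strongest of VIM, and no mutant peak. FN1, on chromosome 2 from 215360865 to 215436068, encodes fibronectin, and its start lay under 1 peak in each WT list, with folds of 3.98 and 3.59 and ranks of 17858 and 18832. FN1-DT, an RNA gene, overlaps this peak. TNC, on chromosome 9 from 115019575 to 115118157, encodes tenascin C, and its WT region had summits at -667 and -704 bp with folds of 6.07 and 3.83 (ranks 8042 and 21449). SPARC, on chromosome 5 from 151661096 to 151686915, encodes osteonectin, a matrix protein that binds collagen. Its WT region, unlike those of the other 9 genes, lay past the far end of the gene, 27727 and 27557 bp from the start by its summits, with folds of 4.49 and 4.33. No list had a peak at the start of SPARC. Another peak of WT replicate 1, with a fold of 5.56, lay at -9773 bp, just inside the 10 kb limit.

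**Figure D3:**
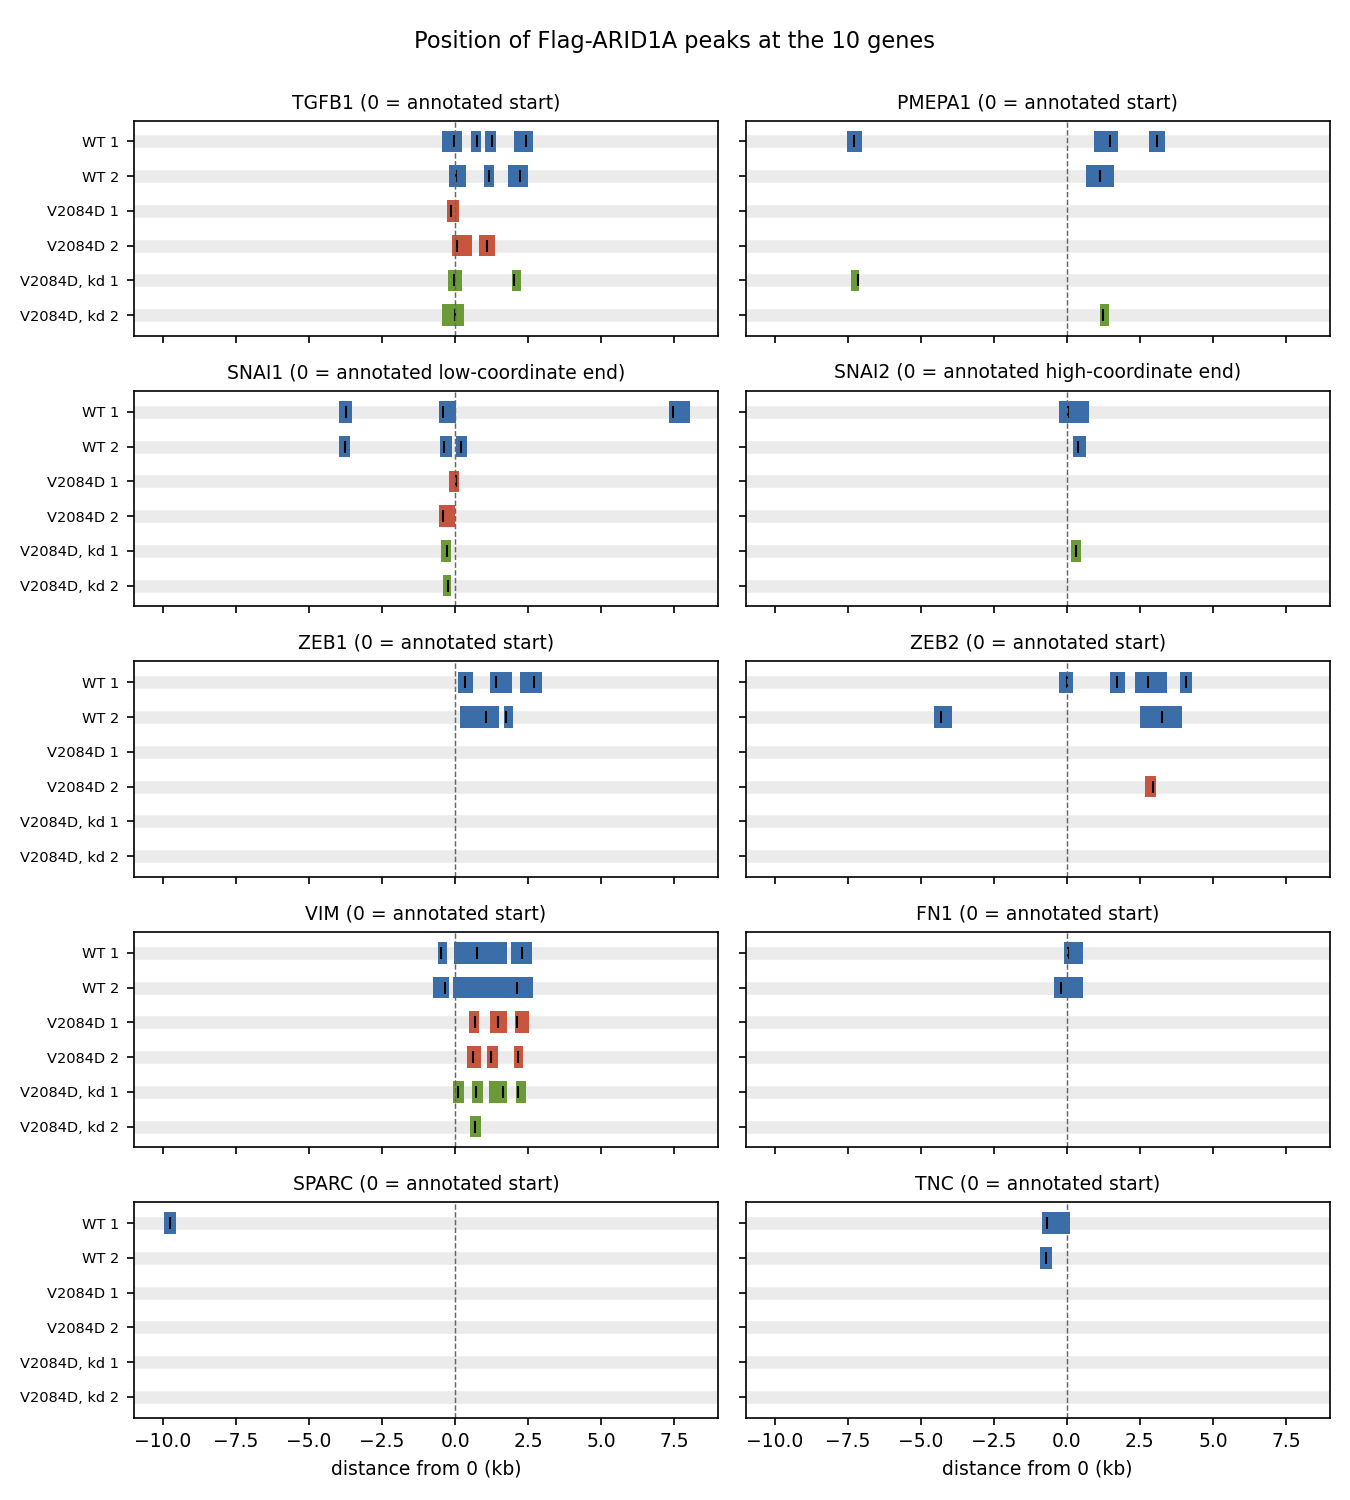
Position of the listed peaks (bars) and their summits (black ticks) at the 10 genes in the 6 libraries, in kb from the annotated start, or from the named gene end for SNAI1 (low-coordinate end) and SNAI2 (high-coordinate end). Values below 0 lie upstream of a start or, for SNAI1 and SNAI2, towards lower coordinates. Peaks beyond the plotted range, such as the SPARC peaks at 27727 and 27557 bp, are not drawn. At TGFB1, SNAI1 and VIM all 6 libraries have a peak close to 0, and at ZEB1, FN1, SPARC and TNC the 4 mutant rows are empty.

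The comparison of V2084D with WT asked whether the mutant protein occupies these genes as the wild type does. Over the 10 genes, WT had 26 and 18 peaks, 22.0 ± 5.66 (SD, n = 2), and V2084D had 5 and 9, 7.0 ± 2.83 (SD, n = 2). Both V2084D lists lay below both WT lists in peak number at 7 of the 10 genes (PMEPA1, SNAI1, SNAI2, ZEB1, FN1, SPARC and TNC), against 38.7% of all genes. Both lay above at none (0.319% of all genes). All genes include those without a WT peak, which cannot lie below WT, whereas all 10 genes had peaks in both WT lists. The share among genes with a WT region, which would be higher, was not taken. TGFB1, ZEB2 and VIM overlapped between the groups. Relative to the length of the lists, the 10 genes held 0.942 and 0.679 of every 1000 listed peaks in WT and 0.833 and 0.727 in V2084D, a log2 ratio of the means of -0.06, smaller than the spread between libraries. With 2 libraries against 2 the smallest p of the exact permutation test of libraries is 0.333, so no gene could pass 0.05. The 7 genes without overlap had p = 0.333 in this exact test, two-sided (adjusted p = 0.855 over all 20037 genes). No gene of all tested passed before or after adjustment (0 of 20037, 0.0%).

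Of the genes with a WT region, 6 of the 10 had no V2084D peak (PMEPA1, SNAI2, ZEB1, FN1, SPARC and TNC), as had 27.1% of the 12791 genes with a WT region, which were 63.8% of all genes. Without V2084D replicate 2, the longer V2084D list, 7 of the 10 had none against 56.6% of all genes with a WT region. The count changed with list length. With every list limited to its strongest 6000 peaks, the length of the shortest, TGFB1, SNAI1, ZEB2 and VIM had a WT region (22.0% of all genes did), and of these 4 only ZEB2 had no V2084D peak (17.8%). Genes with 1 WT region are more often without a V2084D peak than genes with several, at 35.7% against 18.6% for 2 regions and 8.09% for 3 or more, and 7 of the 10 genes had only 1. The 6 genes are all among these 7. Counted by region, 9 of the 14 WT regions at the 10 genes had no V2084D peak (46.8% of all 16157 WT regions) and 6 had no peak in any mutant list (34.9%). With WT replicate 1 alone, each of its 26 peaks at the genes counting as a region, 19 had no V2084D peak (64.1% of all). The 3 regions with a peak in all 4 mutant lists (13.0% of all) were those at the starts of VIM and TGFB1 and at the low-coordinate end of SNAI1. They were also the 3 strongest in WT, in classes 1 and 2 when all WT regions were divided into 10 strength classes of equal size by the worse of the 2 WT ranks (1 being the strongest). In those classes 89.8% and 78.8% of all WT regions had a V2084D peak. The 6 regions without any mutant peak lay in classes 6 to 9, where this share fell from 45.3% to 32.7%. The region of PMEPA1 lay in class 4 and that of ZEB2 in class 3, where 60.3% and 68.9% had a V2084D peak. PMEPA1 had none and ZEB2 had one in replicate 2.

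**Figure D4:**
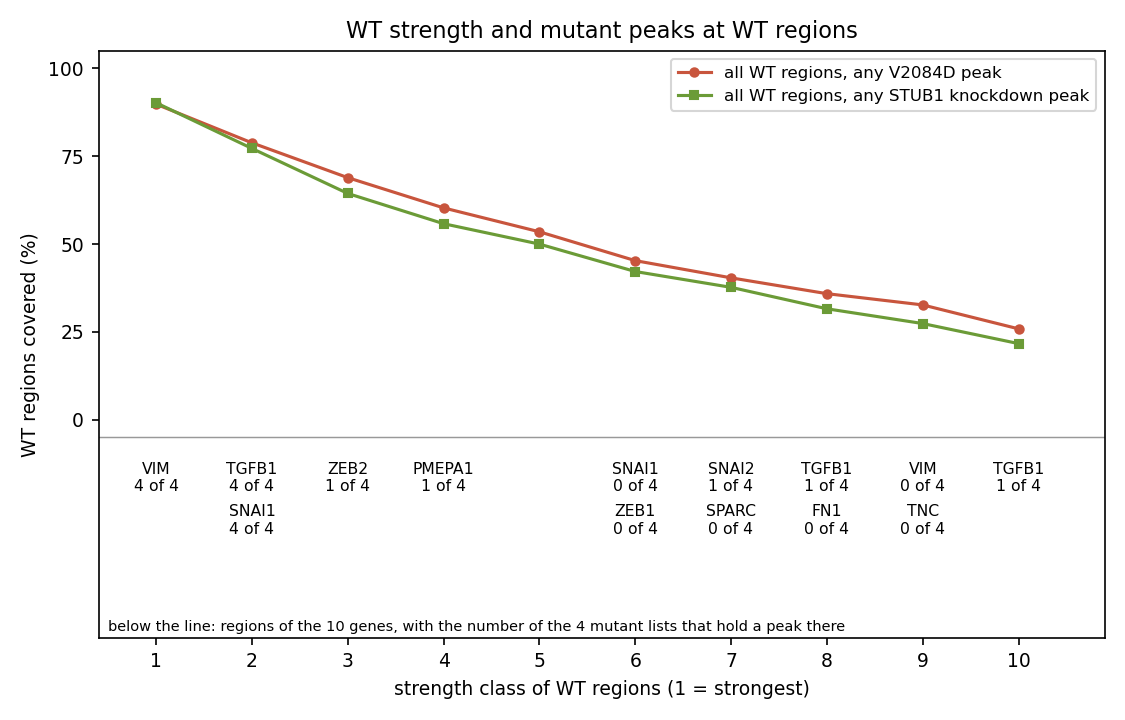
Share of all WT regions with a peak in any V2084D list (red) or any STUB1 knockdown list (green), in %, by class of WT strength (1 is the strongest of 10 classes of equal size). Below the line, the 14 WT regions at the 10 genes stand under their class with the number of the 4 mutant lists that hold a peak there, and the 3 regions with 4 of 4 (VIM, TGFB1, SNAI1) lie in classes 1 and 2.

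The knockdown of STUB1 in V2084D cells was compared with V2084D alone to ask whether lowering the ligase changes where the mutant protein is found. The knockdown lists had 9 and 4 peaks at the 10 genes, 6.5 ± 3.54 (SD, n = 2), which overlaps the 5 and 9 of V2084D. Per 1000 listed peaks they held 1.01 and 0.6, a log2 ratio of 0.05 to V2084D, smaller than the spread between libraries. Both knockdown lists lay above both V2084D lists in peak number at PMEPA1 alone (1 of 10, against 2.27% of all genes) and below at none (3.24% of all genes). For PMEPA1 the exact permutation p was 0.333, the smallest possible, with an adjusted p of 1.0. No gene passed this exact test before or after adjustment (0 of 20037, 0.0%). Against WT, which also served the comparison above, both knockdown lists were lower at 8 of the 10 genes (42.4% of all genes), the exceptions being VIM and SNAI2. This share again includes genes without a WT peak, which cannot be lower. Of the 10 genes 5 had no knockdown peak, namely ZEB1, ZEB2, FN1, SPARC and TNC (31.9% of genes with a WT region), and 8 of the 14 WT regions had none (50.2% of all WT regions). Without knockdown replicate 1 the count of genes was 6 of 10, against 52.7%. With WT replicate 1 alone 18 of 26 had none (66.7%). With every list limited to 6000 peaks, SNAI1 and ZEB2 were the 2 of 4 genes with a WT region that had no knockdown peak (17.9% of such genes).

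Peaks with −log10 q of at least 5 made up 38.2% and 34.3% of the WT lists, 20.8% and 20.4% of the V2084D lists and 34.5% and 23.6% of the knockdown lists. At this level 8 and 6 of the 10 genes had a peak in WT (49.7% and 44.8% of all genes), none had one in V2084D (7.06% and 14.6%), and in each knockdown list VIM and TGFB1 had one (17.8% and 9.21%). These counts are small, and their difference from the shares of all genes was not tested. With a fold of at least 5 in place of this level, the same 8 and 6 genes had a peak in WT and none had one in V2084D replicate 1. TGFB1 and SNAI1 had a peak in V2084D replicate 2, and VIM and TGFB1 had one in each knockdown list. Of the 4 genes with a WT region at this fold, 2 had no V2084D peak and 2 no knockdown peak (55.3% and 51.1% of all such genes). Shares of all genes for single lists were not taken at this fold. The highest −log10 q of V2084D at the 10 genes was 3.83 in replicate 1 and 4.96 in replicate 2, both at VIM, and that of the knockdown was 7.98 and 6.85, both at TGFB1. Over the whole lists, too, the share of peaks with −log10 q of at least 5 was higher in both knockdown lists than in both V2084D lists. Because q depends on the depth of a library, these highest values were not compared between groups, and the same measure was not taken over all genes.

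Peaks were also counted in the surroundings of the genes. In the 5 Mb centred on ZEB1 the WT lists held 31 peaks each, V2084D 2 and 4, and the knockdown 3 and 1, or 1.12 and 1.17 of every 1000 listed peaks against 0.333 and 0.323 and 0.337 and 0.15. Around FN1 there were 21 and 18 WT peaks, against 1 and 3 for the mutant and 2 and 1 for the knockdown. Around TGFB1 the WT lists held 6.09 and 6.03 peaks per 1000, V2084D 5.5 and 6.46, and the knockdown 7.64 and 6.9, and V2084D overlapped with WT. At 8 of the 10 genes, all but TGFB1 and TNC, this measure was lower in all 4 mutant lists than in both WT lists, as at 37.4% of all genes, and it was higher at none (16.7% of all genes). Its part in the results at the genes themselves was not tested.

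The other 56 genes of 7 lists of the pathway (ligands and latency proteins, receptors, SMADs and their regulators, targets, transition factors, mesenchymal genes and epithelial genes) were occupied at 40 in WT, or 71.4%, against 63.8% of all genes. Of these 40, 10 had no V2084D peak (27.1% of all genes with a WT region) and 5 had no mutant peak (17.7%), so neither count stood above the share of all genes. Among ligands and latency proteins, TGFB3 had WT folds of 10.7 and 8.1, and LTBP1, which anchors latent TGF-beta in the matrix, had 11.9 and 6.73. LTBP2 and LTBP3 completed the 4 with a WT region, and all 4 had peaks in V2084D. Among receptors, ACVR1B had the strongest WT region (8.05 and 6.59) without a V2084D peak at that region, and TGFBR3 followed (6.96 and 4.85). The type I receptor gene TGFBR1 had no V2084D peak and 1 with knockdown in replicate 1, and TGFBR2 and ACVR2A had no mutant peak.

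All 9 genes of SMADs and regulators had a WT region, and 8 of the 9 had a V2084D peak, while 27.1% of all genes with a WT region had none. SMAD3, a receptor-regulated SMAD, had WT folds of 8.28 and 9.99 and a peak at that region in all 4 mutant lists. SMAD6 (7.74 and 11.3) and SMAD7 (7.95 and 9.35), the inhibitory SMADs, had none in V2084D replicate 1 and 7 and 1 in replicate 2. SMAD2 (7.16 and 6.18) had a peak in both V2084D lists and in no knockdown list. Among the other 9 targets, 8 had a WT region, 5 a peak in any V2084D list and 9 a peak in any knockdown list. TGFBI, with 1 peak in knockdown replicate 1, was the target without a WT region. Over all 56 other pathway genes, 31 had a V2084D peak and 29 a knockdown peak. V2084D peaks were missing from 27.1% of all genes with a WT region, and knockdown peaks from 31.9%. The difference between the mutant groups at the targets was not tested. By the worse of its 2 WT ranks, BHLHE40 and then CDKN2B (7.47 and 7.19), ID2 (7.73 and 10.3) and CCN1 (6.28 and 6.27) had the strongest WT regions of these targets. The regions of CDKN2B, ID2 and CCN1 lay outside the genes, in their 10 kb flanks. Other genes near these regions were not looked up, so the peaks cannot be assigned to the targets. BHLHE40, a repressor of the circadian clock, had the highest fold of the pathway genes, at 18.1 in WT replicate 1 (9.72 in replicate 2), and a peak in all 6 lists. ID1, chosen for mention after its values were seen, was the only one of the 40 without a V2084D peak and with one in both knockdown lists, as PMEPA1 was among the 10, and no knockdown peak of it lay at its strongest WT region.

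Of the other 5 transition factors TCF4 (8.59 and 8.25), FOXC2 (6.57 and 4.85) and TWIST1 (7.06 and 3.45) had a WT region. All 3 had a peak in 1 V2084D list, and none had a knockdown peak. V2084D peaks were missing from 27.1% of all genes with a WT region, and knockdown peaks from 31.9%. Among the other 11 mesenchymal genes 6 had a WT region. CDH2, the gene of N-cadherin (8.72 and 7.65), had a peak in V2084D replicate 2 and in both knockdown lists, LOX (6.39 and 5.69) and ITGA5 (6.78 and 5.02) had peaks in both V2084D lists and in no knockdown list, COL1A1 (3.9 and 3.91) had peaks in all 6 lists, and ACTA2 and TAGLN had no mutant peak. On the epithelial side 5 of 10 genes had a WT region, with CLDN7 (10.3 and 8.38), KRT8 (5.96 in each) and CDH1, the gene of E-cadherin (4.97 and 4.39), having a peak in at least 1 list of each mutant group, and ESRP2 (5.54 and 5.74) in none. The regions of CLDN7, CDH1, ESRP2 and FOXC2 with these folds lay outside the genes, in their 10 kb flanks, and that of KRT8 lay inside the gene. Other genes near these regions were not looked up. Counts for single lists are small, and no difference between lists was tested.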

How the data were processed

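ChIP-seq with a Flag antibody was deposited as 1 narrowPeak list per library, 6 lists in all, and the peak names show that the authors called peaks per library. The submitters' processing notes name the build hg38 and the tools MACS2, Bowtie2, Trimmomatic, SAMtools, deepTools, Picard and bedtools. Their versions and settings, and which control each call used, are not given in the sources used. In the deposited lists the fold enrichment is a ratio, and the significance values deposited beside it are −log10 p and −log10 q. The deposited score (10 times −log10 q) was not used, and the other column gives the summit offset.

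Peaks were read with Python 3.11.15 and pandas 2.3.3. Coordinates were written counting from 1. A peak counted for a gene when it overlapped the gene or its 10 kb flanks by at least 1 bp, and tied peaks shared the better rank. WT regions were made by joining peaks of the WT lists that share at least 1 bp, and a mutant peak covered a region when it overlapped one of its peaks by at least 1 bp. Gene positions came from RefSeq GRCh38.p14, which is hg38 on the assembled chromosomes, and all 66 pathway genes matched. Longer genes have wider windows, and the median length was 44.4 kb for the 10 genes and 24.1 kb for all protein-coding genes. Libraries were compared in peak number by an exact permutation test, two-sided, and p was adjusted over 20037 genes after Benjamini and Hochberg. The scripts were tested on simulated peaks, and all 200 windows were counted right in 4 of 4 lists. The members and the lists were chosen with earlier results of these data known, and patterns already seen there are no independent support. Up to 4 other genes per pathway list were named, those with the strongest WT region, and all others with a WT region and no mutant peak.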

Additional observations from a re-analysis of the deposited data

How the results depend on the processing

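Each count at the 10 genes was recomputed under other settings. With lists limited to the strongest 6000 peaks, the length of the shortest list, 4 genes had a WT region. Of these genes 1 had no V2084D peak and 2 had no knockdown peak. Of their 4 WT regions 1 and 2 had none (26.4% and 24.6% of all WT regions). Of all genes with a WT region, 17.8% and 17.9% had none there. With a fold of at least 5 the counts were 4, 2 and 2 (55.3% and 51.1% of all such genes), and 3 and 2 of 4 regions (64.7% and 61.1% of all). With −log10 q of at least 5 they were 5, 5 and 3 (61.4% and 53.6%), and 5 and 3 of 5 regions (68.7% and 62.2% of all). With overlap of at least 50% of both peaks they were 7, 3 and 3 (23.4% and 28.0%). The log2 ratio of peaks per 1000, -0.06 for V2084D to WT, became -1.51 with a fold of at least 5 and turned to 0.04 with flanks of 2 kb. The ratio of 0.05 for knockdown to V2084D became 1.21 with a fold of at least 5 and turned to -0.15 with lists of equal length. Neither ratio could be computed at −log10 q of at least 5, where V2084D had no peak. Fewer peaks entered under the stricter settings, and other causes were not tested.

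With each library left out in turn, 10 genes kept a WT region, 6 to 7 had no V2084D peak, and 5 to 6 had no knockdown peak. ZEB2 joined the former without V2084D replicate 2, when the share of all genes rose from 27.1% to 56.6%, and SNAI2 the latter without knockdown replicate 1, when it rose from 31.9% to 52.7%. The regions without a V2084D peak ran from 9 to 19 and those without a knockdown peak from 8 to 18, the highest both without WT replicate 2, where each of the 26 peaks of replicate 1 counted as a region. The log2 ratios ran from -0.27 to 0.20 (V2084D to WT) and from -0.38 to 0.37 (knockdown to V2084D). Neither sign was stable. In the tests of peak number 0 of the 10 genes passed in any setting, including the replicate block, which paired libraries by number and whose smallest p is 0.5. Deviations of same-numbered libraries from their group mean correlated at -0.01, 0.05 and -0.11 across genes. With 2 libraries per group this cannot show whether same-numbered libraries share a batch, which the sources used here do not give. Pairing V2084D with the knockdown libraries in crossed order, chosen after seeing the data, also gave 0 calls. The tests could give no other count, so they say nothing of stability. Read depth is unknown, and an absent peak shows only that none was listed.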
